A study of Oryctolagus cuniculus with 8 samples.

Results

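The genes described here are those whose level set rabbit lungs with congenital diaphragmatic hernia (CDH) and treprostinil apart from every other lung of the study, while CDH lungs without the drug and control lungs stayed close to each other. They number 61 of the 23669 Ensembl gene IDs in the count table, 21 higher and 40 lower in the exposed lungs. Genes were selected on their levels in the libraries: the lowest exposed library had to be at least 25% above the highest other library, or the highest exposed library at most 0.8 of the lowest other library. In addition, the means of placebo CDH and control had to lie within 25% of the lower one, and 1 group had to reach a mean of 5 CPM (counts scaled to library totals of 1000000) or more. A run of 37 consecutively numbered IDs was left out beforehand. These values of all 8 libraries chose the genes, so the differences between exposed and other lungs, and the closeness of placebo CDH to control, are given as a description and not as a tested finding.

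RNA sequencing measured gene expression in 8 rabbit lung libraries (Oryctolagus cuniculus): 3 from CDH lungs given placebo (placebo CDH), 3 from CDH lungs with treprostinil (exposed CDH) and 2 from control lungs without the drug, whose treatment is also labelled placebo. The hernia was made by surgery, and rabbits of the exposed group received treprostinil on day 24 of a gestation of 31 days. The labels give no strain, no age at lung collection, no operation for the controls and no statement that libraries came from separate animals, so any spread between libraries may be technical. Each library's title begins with a code, which is 61 or 56 in the placebo CDH group, 81 in the exposed group and 83 in the controls. Since no code holds 2 groups, the treatment and whatever the code stands for cannot be told apart.

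In CDH the abdominal organs enter the chest through a gap in the diaphragm, and the lung that grows beside them stays small, with few airway branches and thick-walled arteries. Treprostinil is a stable analogue of prostacyclin, a lipid made by the vessel wall. It acts on the prostacyclin receptor, which raises cyclic AMP in smooth muscle cells and platelets, so that vessels relax and platelets clump less. Cyclic AMP activates protein kinase A, and this kinase switches on transcription through factors such as CREB. The count table holds no gene names, and 0 of its IDs could be paired with a symbol, so neither the prostacyclin pathway nor any lung cell type could be looked up, and the labelled tissue could not be checked against its markers. The genes below are therefore described by level, direction and spread. In whole lung, fewer cells of a type and less RNA per cell cannot be told apart.

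Library depth ran from 9367924 to 22060353 counts. The 3 exposed libraries (15280569 to 22060353) spanned the depth of the controls (18032706 and 20510373), and the placebo CDH libraries were shallower to similar (9367924 to 15713833). Of the 61 genes, 59 had at least 20 counts in every library.

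Genes higher in exposed lungs were modest in both level and fold. Their mean over the 8 libraries had a median of 12.1 CPM (range 3.30 to 85.8), against 39.5 CPM (quartiles 18.2 and 86.4) over the 9332 IDs that met the level and placebo-control conditions. Exposed lungs stood 1.39 to 3.29 times above the mean of the 5 other libraries, with a median of 1.71. Only 7 of the 21 reached a fold of 2, another 11 lay from 1.5 to 2, and 3 lay under 1.5. Some, with folds of 2 or more among them, reached the 5 CPM minimum in exposed lungs only. One such gene averaged 6.37 CPM in exposed, 2.66 CPM in placebo CDH and 2.42 CPM in control lungs. The minimum thus let in genes of low level through the group where they were high.

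Among them, ENSOCUG00000002692 showed the largest fold. It stood at 6.15, 6.03 and 5.37 CPM in exposed CDH replicates 1 to 3, at 0.955, 2.13 and 2.07 CPM in placebo CDH replicates 1 to 3, and at 1.72 and 1.999 CPM in the controls. All 3 exposed libraries thus lay close together and well above the others, and the lowest reading was that of placebo CDH replicate 1, with 15 counts. The group means were 5.85 ± 0.423 CPM (SD, n = 3) in exposed, 1.72 ± 0.664 CPM (SD, n = 3) in placebo CDH and 1.86 ± 0.198 CPM (SD, n = 2) in control lungs. Only the exposed mean reached the minimum of 5 CPM, so the gene was selected through the group where it was high. In the edgeR model of all 8 libraries its log2 fold change was 1.78 (standard error 0.29) against placebo CDH and 1.62 (standard error 0.32) against control.

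The next largest fold was that of ENSOCUG00000002244, a more abundant gene with an uneven baseline. It stood at 21.0, 17.4 and 19.9 CPM in exposed CDH replicates 1 to 3, at 6.68, 3.95 and 8.88 CPM in placebo CDH replicates 1 to 3, and at 8.32 and 3.75 CPM in controls 1 and 2. The 5 other libraries covered more than a doubling, yet the highest of them stayed far below the lowest exposed library. Exposed lungs averaged 19.4 ± 1.85 CPM (SD, n = 3), placebo CDH 6.504 ± 2.47 CPM (SD, n = 3) and controls 6.04 ± 3.23 CPM (SD, n = 2). Its log2 fold change was 1.54 (standard error 0.31) against placebo CDH and 1.67 (standard error 0.36) against control, and the latter moved to 2.31 without control replicate 1.

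**Figure D1:**
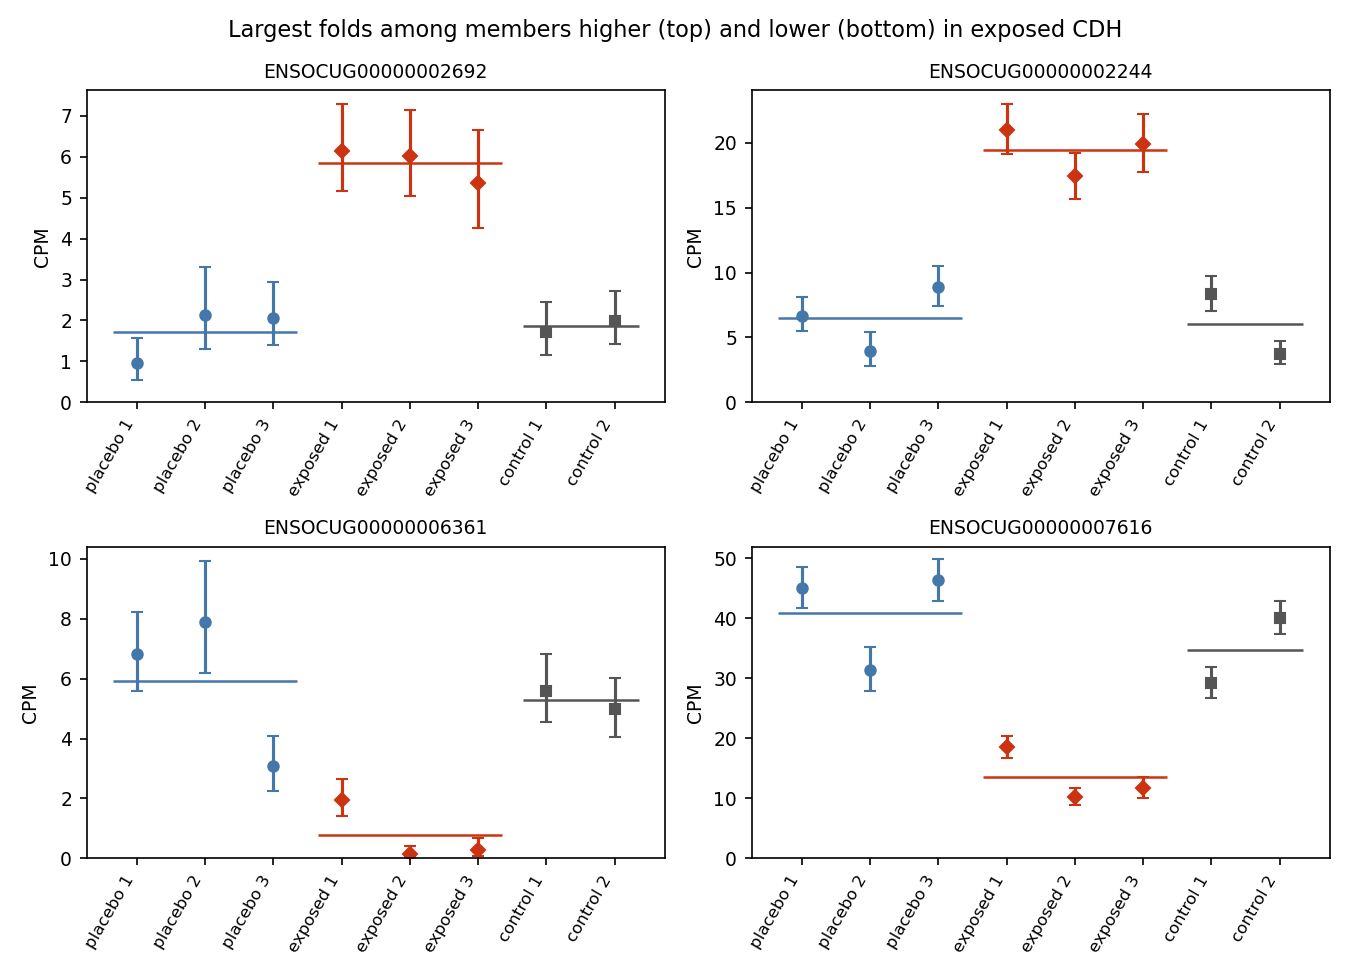
Level in CPM (y axis, linear) of 4 genes in each of the 8 libraries (x axis), with placebo CDH as circles, exposed CDH as diamonds and control as squares. Bars are exact 95% Poisson intervals for counting error only and horizontal lines are group means. In both upper panels the exposed libraries lie above every other library, and in both lower panels they lie under them; exposed CDH replicate 1 is the highest of the exposed libraries in both lower panels.

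Other genes of the higher set were described after their values were seen. The most abundant stood at 105, 116 and 121 CPM in exposed CDH replicates 1 to 3, at 71.2, 66.5 and 71.2 CPM in placebo CDH replicates 1 to 3, and at 56.01 and 78.9 CPM in controls. Its controls lay on both sides of the placebo libraries, so the baseline spread came from the controls. A gene with the tightest exposed values read 26.1, 26.2 and 25.8 CPM in exposed lungs against 13.4, 16.5 and 16.02 CPM in placebo CDH and 15.1 and 14.2 CPM in control lungs. The exposed lungs did not always sit together: another gene stood at 36.3, 25.1 and 46.0 CPM in exposed CDH replicates 1 to 3, against 17.0 to 19.8 CPM in placebo CDH and 14.9 and 16.3 CPM in controls.

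Genes lower in exposed lungs covered a wider range of levels. Their mean over the 8 libraries had a median of 28.7 CPM and reached from 3.84 to 1004 CPM, and 10 of the 40 had a mean above 100 CPM, a level that 0 of the higher genes reached. The mean of the 5 other libraries was 1.44 to 7.22 times that of exposed lungs, with a median of 1.68. A fold of 2 or more was reached by 10 genes, 26 lay from 1.5 to 2 and 4 lay under 1.5. Summed over the 40 genes, exposed lungs held 3163 to 3406 CPM, placebo CDH 5018 to 5143 CPM and controls 5199 and 5682 CPM. The 21 higher genes together held 637 to 674 CPM in exposed, 392 to 403 CPM in placebo CDH and 368 and 399 CPM in control lungs.

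**Figure D2:**
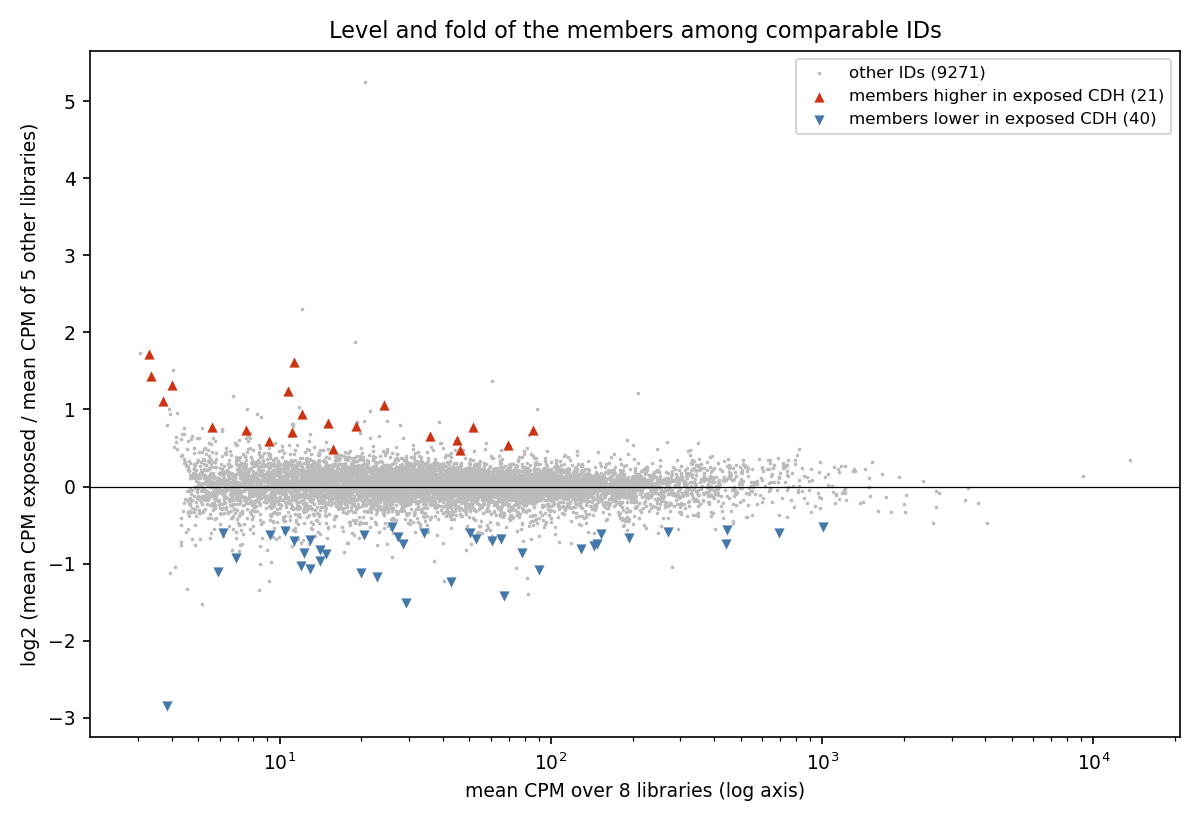
Mean CPM over the 8 libraries (x axis, log scale) against the log2 ratio of the exposed mean to the mean of the 5 other libraries (y axis), for the 9332 IDs that met the level and placebo-control conditions. Upward triangles are the 21 higher and downward triangles the 40 lower genes; of these, only lower genes appear above 100 CPM, and grey points with larger ratios did not meet the gap between libraries.

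The largest fold of the lower set belonged to ENSOCUG00000006361, a gene of low level. Exposed CDH replicates 1 to 3 read 1.96, 0.136 and 0.262 CPM, placebo CDH replicates 1 to 3 read 6.81, 7.90 and 3.07 CPM, and the controls 5.60 and 4.97 CPM. The exposed libraries were themselves far apart: replicate 1 held 43 counts, replicate 2 held 3 (0.136 CPM, exact 95% Poisson interval 0.0280 to 0.397 CPM) and replicate 3 held 4 (0.262 CPM, interval 0.0713 to 0.670 CPM). Means were 0.786 ± 1.02 CPM (SD, n = 3) in exposed, 5.93 ± 2.53 CPM (SD, n = 3) in placebo CDH and 5.29 ± 0.444 CPM (SD, n = 2) in control lungs. The gene met the minimum of 5 CPM only through the groups where it was high. The log2 fold change was -2.87 (standard error 0.74) against placebo CDH and -2.72 (standard error 0.77) against control. Exposed CDH replicate 1 decided its size, since without that library the values were -4.90 and -4.76.

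ENSOCUG00000007616 came second among the lower genes. It read 18.6, 10.2 and 11.8 CPM in exposed CDH replicates 1 to 3, 45.1, 31.4 and 46.3 CPM in placebo CDH replicates 1 to 3, and 29.2 and 40.1 CPM in controls. Replicate 1 was again the highest exposed library, and every other library stayed above it. Mean levels were 13.5 ± 4.42 CPM (SD, n = 3) in exposed, 40.9 ± 8.29 CPM (SD, n = 3) in placebo CDH and 34.7 ± 7.67 CPM (SD, n = 2) in control lungs, with log2 fold changes of -1.62 (standard error 0.24) against placebo CDH and -1.39 (standard error 0.26) against control.

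Further lower genes, also picked after their values were seen, differed in how evenly the exposed lungs behaved. One read 23.0, 23.3 and 23.1 CPM in exposed lungs, 52.9, 57.4 and 50.9 CPM in placebo CDH and 58.1 and 53.1 CPM in controls, the widest gap of the lower set relative to its level (highest exposed library at 0.457 of the lowest other library). Another read 59.0, 66.0 and 34.7 CPM in exposed CDH replicates 1 to 3, 131, 98.6 and 113 CPM in placebo CDH and 130 and 89.3 CPM in controls. Here replicate 3 was the lowest exposed library and the controls lay further apart than the placebo libraries. Still another gene read 29.0, 29.1 and 39.7 CPM in exposed lungs, 82.5, 118 and 79.3 CPM in placebo CDH and 76.5 and 81.2 CPM in controls, so that 1 placebo library stood above an otherwise even baseline.

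The 4 most abundant of the lower genes had folds of 1.44, 1.52, 1.47 and 1.68 in order of level, beside a median of 1.68 for the lower set. The first of them read 762, 787 and 815 CPM in exposed lungs, 1050, 1092 and 1033 CPM in placebo CDH and 1314 and 1177 CPM in controls. The second read 572, 494 and 506 CPM in exposed lungs, 745, 753 and 720 CPM in placebo CDH and 923 and 852 CPM in controls. In both, the placebo CDH lungs lay between exposed and control lungs without overlap on either side. The third read 360, 322 and 351 CPM in exposed lungs, 487, 472 and 490 CPM in placebo CDH and 543 and 547 CPM in controls, in the same order. The fourth read 355, 263 and 314 CPM in exposed lungs, 524, 568 and 479 CPM in placebo CDH and 527 and 513 CPM in controls, and here placebo CDH and control overlapped.

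**Figure D3:**
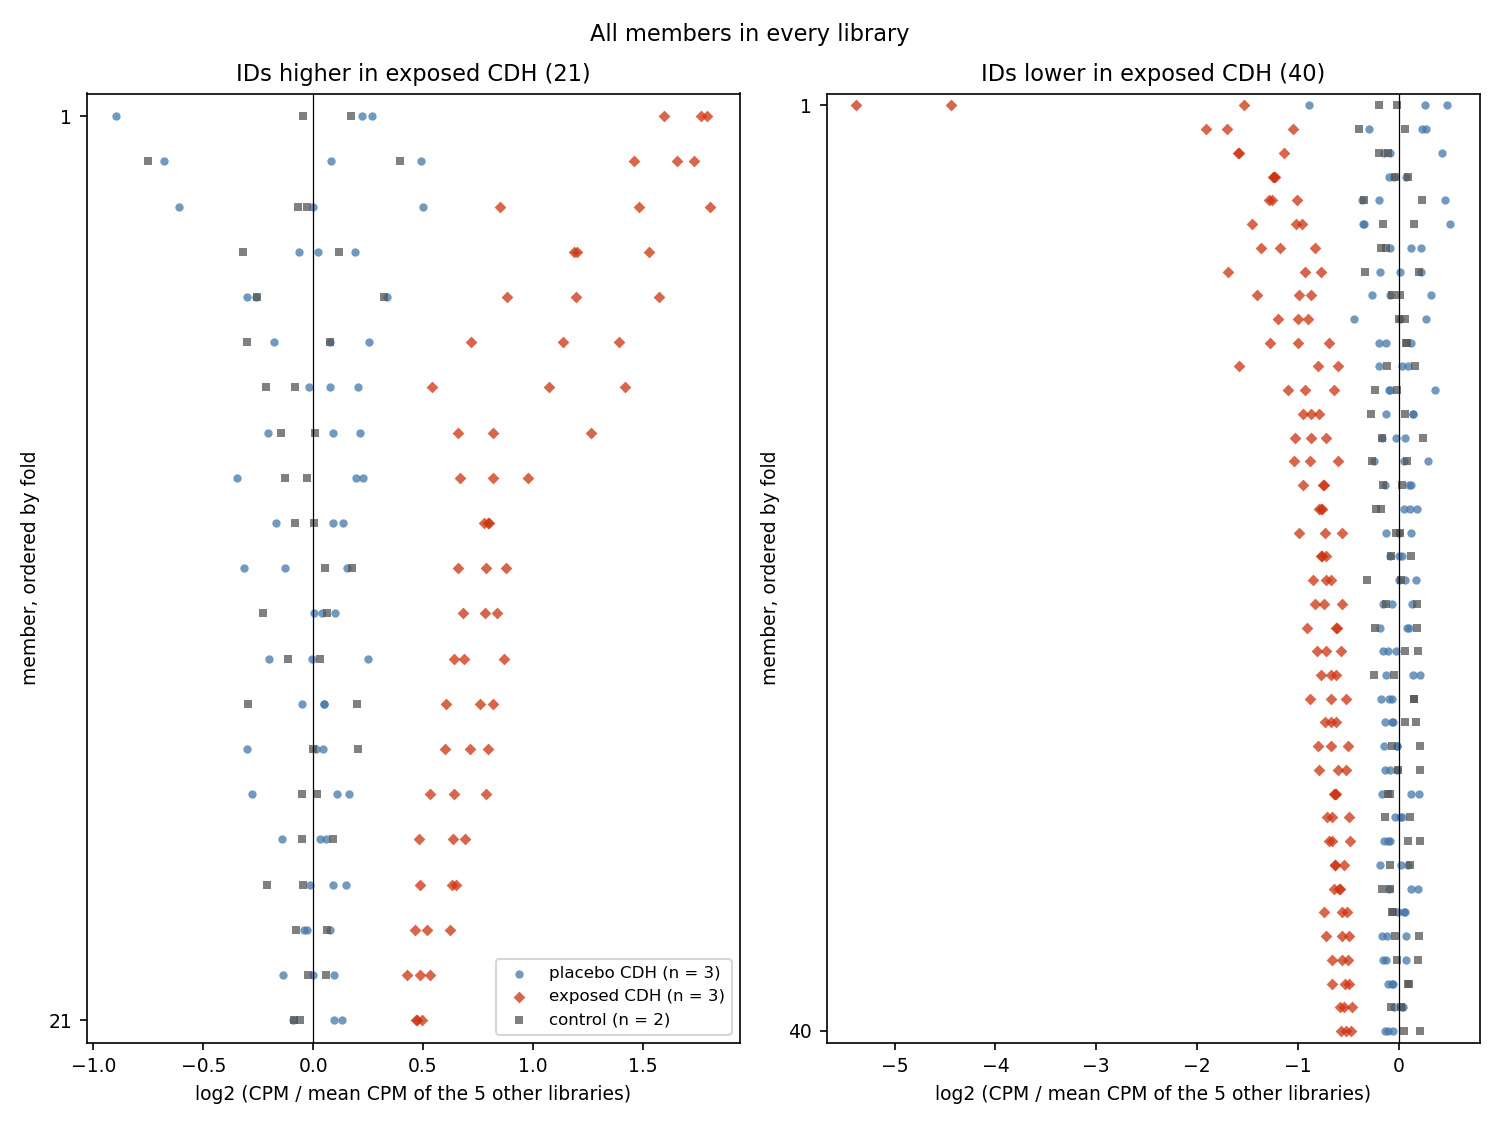
Every one of the 61 genes (rows, ordered by fold) in every library, as the log2 ratio of its CPM to the mean CPM of the 5 other libraries (x axis, with a different range in each panel). Exposed CDH libraries (diamonds) lie to the right of all others for the 21 higher genes and to the left for the 40 lower ones, as the selection requires; the top row at right is the gene whose exposed replicates differed most.

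Closeness of placebo CDH to control was itself graded. Control means were 0.850 to 1.15 times placebo CDH means among the higher genes and 0.801 to 1.201 times among the lower ones. The libraries of placebo CDH and control overlapped for 19 of 21 higher genes and 30 of 40 lower genes. Among the 9332 IDs that met the level and placebo-control conditions, they did not overlap for 27.2%. Of the 10 lower genes without overlap, 7 had every placebo CDH library below both controls (12.6% of the 9332 IDs), which places placebo CDH between exposed and control lungs, and 3 had every placebo library above both controls (14.5%). Both higher genes without overlap had placebo CDH above control (14.5% of the 9332 IDs), again between exposed and control lungs. Placebo CDH thus held the middle place in 9 genes and control in 3. Whether these counts depart from the shares over the 9332 IDs was not tested.

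In 1 of the lower genes placebo CDH and control differed enough to be called higher in placebo CDH by edgeR (adjusted p under 0.05), as were 0.841% of the 14507 IDs tested. It read 185, 177 and 194 CPM in placebo CDH, 151 and 146 CPM in control and 101, 99.8 and 98.4 CPM in exposed lungs, so control lungs held the middle place. The call did not hold in 7 of the 8 fits that left out a library, all but the one without exposed CDH replicate 1. DESeq2 called 5 of the 61 genes in this comparison, and the share of all IDs that it called is not given here.

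**Figure D4:**
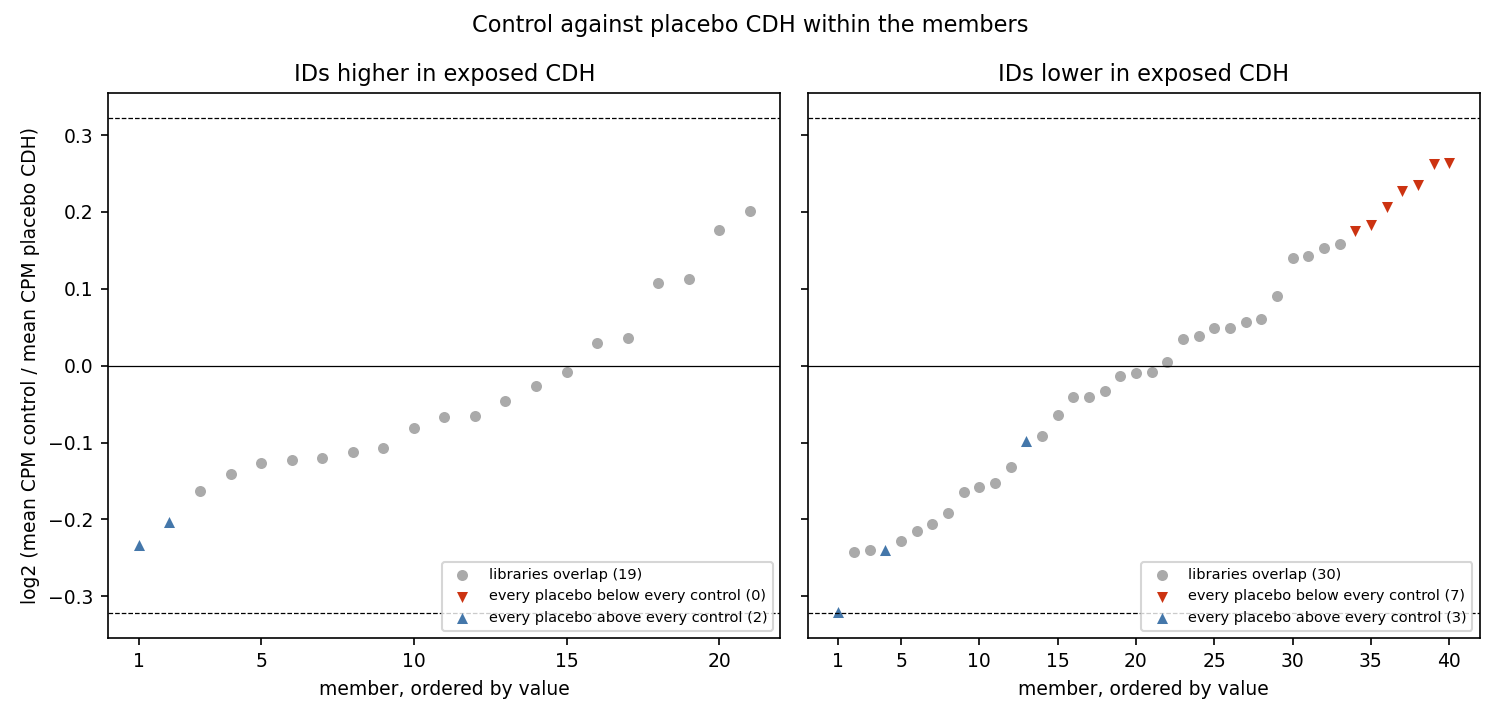
The log2 ratio of the control mean to the placebo CDH mean (y axis) for the 21 higher (left) and 40 lower genes (right), ordered by that ratio along the x axis, with dashed lines at the 25% limit. Triangles mark genes whose placebo CDH and control libraries do not overlap, 2 at left and 10 at right, of which 7 have every placebo library below both controls.

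The fit of the whole table gave the background for these genes. All 61 passed the filter on low counts. Against placebo CDH, 9 of the 21 higher and 30 of the 40 lower genes were called in that direction (edgeR, adjusted p under 0.05), where 0.345% and 1.08% of all 14507 IDs were called higher and lower. Against control, 18 of the 21 and 37 of the 40 were called, where 2.43% and 5.34% of all IDs were. These comparisons share the exposed libraries, and the rule used both, so the counts carry no independent weight. Both calls held together for 8 higher and 30 lower genes, and 2 higher and 3 lower genes had neither, among them ENSOCUG00000006361 despite its largest fold. The shares of all IDs with both calls or with neither are not given here. Median log2 fold changes against placebo CDH were 0.76 for the higher genes and -0.78 for the lower ones, and against control 0.80 and -0.78, beside medians of 0.00 and 0.01 over all IDs tested.

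The number of calls varied with the library left out. The share of all IDs called in these fits is not given here, so the drops may not be particular to these genes. The 39 calls against placebo CDH numbered 21, 13 and 27 without placebo CDH replicate 1, 2 or 3. Without exposed CDH replicate 1, 2 or 3 they numbered 30, 16 and 11. The 55 calls against control numbered 51, 49 and 55 without placebo CDH replicate 1, 2 or 3. Without exposed CDH replicate 1, 2 or 3 they numbered 45, 40 and 31. Fits that left a lone control are not listed.

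Within the exposed group the libraries did not contribute evenly to the lower genes. The same counts over the 9332 IDs are not given here, so the unevenness may not be particular to these genes. Among the 40 lower genes, exposed CDH replicate 1 was the highest exposed library, and so the nearest to the other lungs, in 22, replicate 2 in 12 and replicate 3 in 6, while replicate 3 was the lowest in 21. With TMM-scaled library sizes, which are 1.03 times the count total for replicate 1, 0.987 times for replicate 2 and 1.01 times for replicate 3, the numbers were 15, 18 and 7, so the lead of replicate 1 was not kept and replicate 3 was still the lowest in 19. Among the 21 higher genes, replicate 1 was the highest in 10, replicate 2 in 4 and replicate 3 in 7, and with TMM-scaled sizes in a more even 7, 6 and 8. The other library nearest to the exposed ones was a placebo CDH library for 17 of the 21 higher and 23 of the 40 lower genes, and a control for 4 and 17. Since 3 of the 5 other libraries were placebo CDH, a placebo library would be nearest more often without any difference between the groups. Whether these counts depart from that share of 3 of 5 was not tested, and neither group is placed nearer to exposed lungs from them. The coefficient of variation between exposed libraries had a median of 7.63% for the higher and 8.94% for the lower genes, against 6.62% over the 9332 IDs.

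The edge of the selection was gradual. The higher genes nearest the limit had a lowest exposed library 1.258 and 1.262 times the highest other library, and the nearest IDs left out stood at 1.248 and 1.245 times. For the lower genes the highest exposed library was 0.798 and 0.794 of the lowest other library just inside and 0.801 for both IDs just outside. A further 15 higher and 19 lower IDs met the gap between libraries but differed by 25% or more between placebo CDH and control. A large mean fold was not enough for inclusion: 13 IDs had an exposed mean at least 2 times that of the 5 other libraries and 12 had one at most 0.5 times, without meeting the gap. The largest of these stood at 78.1 and 78.6 CPM in exposed CDH replicates 2 and 3 but at 1.003 CPM in exposed CDH replicate 1, and at 1.002 to 2.16 CPM in the 5 other libraries. Exposed CDH replicate 1 thus read like the lungs without the drug for this ID, and the other two exposed libraries did not.

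Of the 11437 IDs that reached the level minimum, 0.533% met the rule for exposed lungs, 0.184% as higher and 0.35% as lower genes. The same rule applied to the 3 placebo CDH libraries, against exposed and control lungs, found 21 IDs, 12 higher and 9 lower (0.184%). Applied to the 2 controls, against the 6 CDH libraries, it found 202 of the 11437 IDs, 127 higher and 75 lower. Only 2 libraries have to stand apart there, which is easier to meet, so this count is not comparable with those for 3 libraries. The 3 placebo CDH libraries carry codes 61 and 56 and include the shallowest library, whereas the exposed libraries share code 81. The counts for placebo CDH and exposed lungs may therefore not be comparable either. Whether these numbers differ beyond chance was not tested. The count of genes moved by over 1.5 times with some of the libraries left out. With fewer libraries the gap can only become easier to meet. Genes can then be lost only through the level minimum or the placebo-control limit. Rising counts and the number of genes kept are thus largely fixed by the rule and do not measure stability. Leaving out placebo CDH replicate 1, 2 or 3 gave 35, 37 and 45 higher IDs, leaving out exposed CDH replicate 1 or 2 gave 55 and 49, and leaving out control replicate 1 gave 32. The lower IDs numbered 64 without placebo CDH replicate 1 and 126 without exposed CDH replicate 1. Each of the 8 reduced tables kept 17 to 21 of the 21 higher and 34 to 40 of the 40 lower genes, and 15 higher and 30 lower genes met the rule in all 8.

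The balance of directions also moved with the scaling. With CPM on TMM-scaled library sizes, 17 higher and 54 lower IDs met the rule, so that 23.9% were higher, against 34.4% with CPM on count totals. Of these, 17 and 39 belonged to the 21 and 40.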

How the data were processed

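Lung RNA was sequenced in 8 libraries, grouped by their titles. The deposited values were raw counts, whole numbers of reads per Ensembl gene ID, with no normalization. Per the submitters' processing notes, the tools included STAR 2.5.2b, Trimmomatic 0.36 and DESeq2, with the build OryCun2.0. How reads were counted (program, annotation, strand, multiple matches) is not given in the sources used here, so overlapping, antisense or near-identical genes are uncertain. The gene table at hand describes another assembly (mOryCun1.1) and lists no Ensembl IDs. The 32 gene lists prepared by symbol could not be matched and were not used. Members and lists were chosen with earlier results of these data known.

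CPM was the count divided by the library's total, times 1000000. Fold changes came from edgeR 4.0.16 in R 4.3.3 (filterByExpr, TMM, quasi-likelihood, 3 groups, 5 residual degrees of freedom) over 14507 IDs, with Benjamini-Hochberg adjustment over all of them and standard errors derived from the F statistic. The fit was tested on simulated data. Named IDs are the 2 largest folds per direction, exposed mean over the mean of the 5 other libraries. No libraries held near-identical counts: chi-square per degree of freedom was 12.4 to 56.0 within groups. Alternatives were RLE scaling, other filters, limits and gaps, DESeq2 1.42.0, limma 3.58.1 with voom, fewer groups, a replicate block, and leaving out each library. Intervals cover counting error only.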

Additional observations from a re-analysis of the deposited data

How the results depend on the processing

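The number of genes set by the rule depended on its limits. A gap of 1.5 between libraries left 4 higher and 9 lower IDs, and a gap of 1.1 gave 131 and 184. A minimum of 1 CPM gave 32 higher IDs, a placebo-control limit of 1.1-fold gave 18 lower IDs, and no such limit gave 36 higher IDs. RLE-scaled sizes gave the same counts as TMM, 17 and 54. CPM without the run of 37 IDs, which held 2.03% to 2.61% of the counts in placebo CDH and 0.632% to 0.708% in the other lungs, gave 17 and 45, an alternative chosen after seeing the data. Without single libraries there were 26 to 55 higher and 46 to 126 lower IDs.

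Of the 61 genes, DESeq2 called 60 against placebo CDH, where edgeR called 39. The share of all IDs that DESeq2 called is not given here for any comparison. The rule also used this contrast, so the count of 60 carries no independent weight. Fits without single libraries gave 11 to 30 calls against placebo CDH, 7 to 55 against control and 0 to 1 for placebo CDH against control; a lone control was taken to vary as the other groups do. A replicate block on the final digit of each library's name, not on the code that begins its title, changed the calls. With it, 5 genes were called against placebo CDH, 19 against control and 0 for placebo CDH against control. The shares of all IDs called in these reduced and block fits are not given here. Between libraries that share that digit, the correlation of deviations from group means was -0.07 to 0.07. With 2 or 3 libraries per group, this check cannot settle whether libraries with the same digit belong together. Fitting only the groups compared called 0 genes between placebo CDH and control, and DESeq2 called 5. The cause was not tested, except that fewer libraries entered in some. In 1830 fits of a member against placebo CDH or control, 0 had the opposite direction, which the choice of genes largely fixed. The change of ENSOCUG00000006361 against control was -3.52 on the log2 scale by limma voom.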
